A study of Mus musculus with 6 samples.

Results

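T-box factors are transcription factors that share a DNA-binding domain, the T-box, and 10 of their genes are described here: T (Brachyury), Eomes, Tbx1, Tbx2, Tbx3, Tbx4, Tbx5, Tbx6, Tbx20 and Mga. They were taken by gene name from a deposited table of 36699 gene rows, in which each of the 10 had 1 row. The RNA came from A2Lox.cre cells, a mouse embryonic stem (ES) cell line with a site for doxycycline-inducible transgenes, on day 3 of culture as embryoid bodies. Both groups were grown from that line after removal of feeder fibroblasts. In 1 group of 3 libraries (replicates 2, 3 and 4) no doxycycline was given, and in the other group of 3 (replicates 1, 3 and 4) doxycycline was given from day 2 for 24 hours to express Flag-tagged Sp5. Sp5 is a zinc-finger transcription factor and a known target of Wnt signalling, and the comparison asks which genes differ once it is induced. No library with the drug but lacking the transgene enters here, so effects of drug and transgene cannot be told apart. The Sp5 row, which does not separate the transgene from the native gene, went from 0.769 to 126 FPKM (164-fold).

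T-box factors act in sequence as the embryo lays down its germ layers. Eomes and T are switched on in the primitive streak by Nodal and Wnt signals, Eomes directing the first mesoderm and the definitive endoderm and T the posterior mesoderm and notochord. Tbx6 follows in the presomitic mesoderm, and Tbx1, Tbx4, Tbx5 and Tbx20 pattern the pharynx, limbs and heart later. Tbx2 and Tbx3 are mainly repressors, and Tbx3 is also part of the naive pluripotency network of ES cells. Mga carries a second DNA-binding domain through which it pairs with Max, and it serves in a Polycomb complex that silences germ line genes.

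Levels are given as FPKM, fragments scaled to transcript length and to mapped fragments, 1 value per group as the authors combined the 3 libraries. Values per library were not analysed here, so no level has an SD or an n of its own, and depth is unknown. A log2 fold change is that of the value with doxycycline over the value without. Its standard error (SE) was derived from the authors' Cuffdiff test statistic, whose deposited p-values equal the two-sided normal p of that statistic to within 2.84e-06. A gene is called, and said to have risen or fallen, where the authors' deposited table gives it q under 0.05. Genes marked post hoc were chosen after their values were seen. Nothing in the labels says that the libraries came from separate cultures, so SE and q may measure only technical spread.

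The start regions of the 3 members with the highest levels in the group with doxycycline are shown first, to set the gene that changed most beside one that changed less and one that was not called. Each is 300 bases long, 250 before and 50 after the annotated start, on the plus strand, from RefSeq with build GRCm38.p6. T lies at chr17:8434173-8434472, Eomes at chr9:118477939-118478238 and Mga at chr2:119896978-119897277. Capitals mark matches, on either strand, to the GC box GGGCGG and the CACC box GGGTGG, cores bound by Sp and Klf factors, to the Tcf/Lef core CTTTGA and to the T-box half-site AGGTGT.
T: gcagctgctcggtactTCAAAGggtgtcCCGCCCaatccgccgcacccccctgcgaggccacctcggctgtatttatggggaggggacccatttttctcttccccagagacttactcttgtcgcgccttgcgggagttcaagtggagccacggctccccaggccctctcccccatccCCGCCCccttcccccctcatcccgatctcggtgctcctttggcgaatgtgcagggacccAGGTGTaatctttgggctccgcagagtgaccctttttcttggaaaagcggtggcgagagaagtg
Eomes: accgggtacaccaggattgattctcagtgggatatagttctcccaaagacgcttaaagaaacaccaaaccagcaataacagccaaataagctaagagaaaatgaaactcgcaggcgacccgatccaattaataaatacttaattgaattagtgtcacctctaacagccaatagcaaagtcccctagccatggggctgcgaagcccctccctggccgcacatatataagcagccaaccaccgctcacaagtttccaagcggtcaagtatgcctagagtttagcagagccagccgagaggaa
Mga: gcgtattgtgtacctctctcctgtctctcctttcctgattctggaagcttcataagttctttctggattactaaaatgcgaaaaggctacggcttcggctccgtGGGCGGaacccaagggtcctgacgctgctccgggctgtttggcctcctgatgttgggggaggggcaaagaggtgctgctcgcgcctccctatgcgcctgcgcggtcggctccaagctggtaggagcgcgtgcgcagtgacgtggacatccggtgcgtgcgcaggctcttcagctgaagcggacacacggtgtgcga

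The window of T held 2 GC boxes, beginning at positions -222 and -73 from the start, a Tcf/Lef core at -234 and a T-box half-site at -14. All but the half-site were on the opposite strand. The 3 kinds of motif did not overlap. The Mga window held 1 GC box, at -146, and the Eomes window had no match to these 4 motifs. Windows were present for 7 members (Tbx1 had 2), and those of Tbx2, Tbx3 and Tbx5 were missing. A GC box stood in windows of 5 of the 7 (T, Tbx1, Tbx4, Tbx20 and Mga), a CACC box in 3 (Tbx1, Tbx4 and Tbx20), a T-box half-site in 2 (T and Tbx1) and a Tcf/Lef core in 1 (T). Of all 32851 windows of this length, 35.7% held a GC box, 31.5% a CACC box, 16.0% a Tcf/Lef core and 13.7% a T-box half-site. These shares are by window, whereas the members are counted by gene, over 8 windows. G and C made up 61.7% of the T window and 47.3% of the Eomes window, against a median of 52.7%. Member windows with a GC box had 59.0% to 69.0%, and those without one 47.3% to 58.3%. A match is a run of letters and not a measured binding site. Genes that were not called also held GC boxes.

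Of the 10 members, 3 rose with Flag-Sp5 and none fell. T rose the most, followed by Eomes and Tbx3. Tbx1, Tbx2, Tbx4, Tbx6, Tbx20 and Mga were tested but got no call in the authors' deposited table, and Tbx5 was not tested. The called share was 33.3% of the 9 tested members. Over all 18537 tested genes it was 23.2%, with 10.5% higher and 12.7% lower, and no test of the members' share was made. T and Eomes also passed a minimum fold of 2, as 3.54% of all tested genes did in that direction. The 4 members at 1 FPKM or more in a group were T, Eomes, Tbx3 and Mga, and the 3 called genes were among them. At that level 28.3% of tested genes were called, and 11.5% were called higher. None of the 5 tested members under 1 FPKM in both groups was called, against 13.2% of tested genes at such levels.

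**Figure D1:**
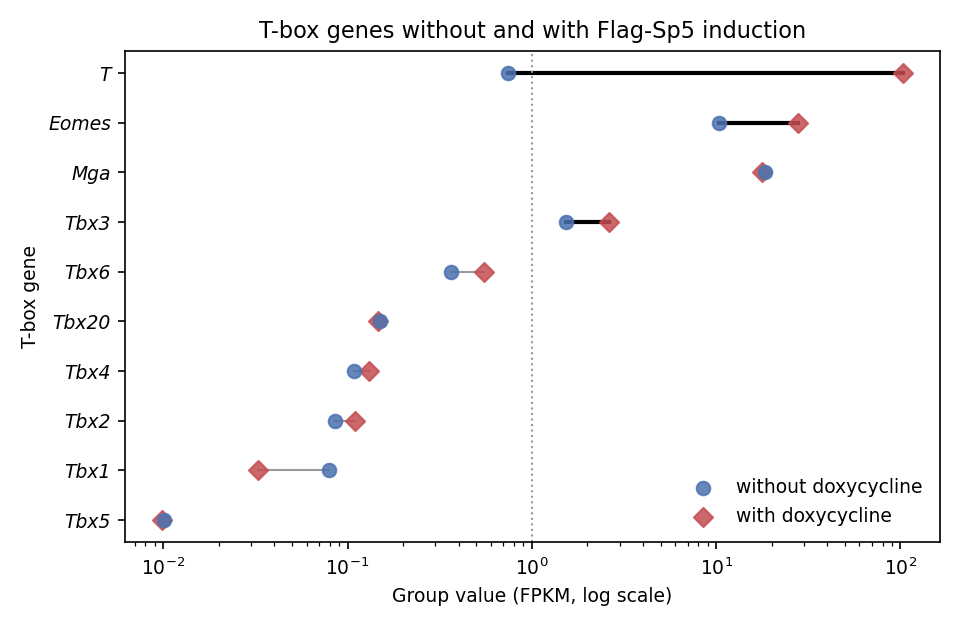
Group values of the 10 T-box genes in FPKM (log axis), circles without and diamonds with doxycycline, joined by a black line where the gene was called at q under 0.05 and a grey line otherwise. The dotted line is 1 FPKM. T crosses it from 0.745 to 103 FPKM, and 6 genes stay below it in both groups.

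T, which is needed for posterior mesoderm and for the notochord, had 0.745 FPKM in the uninduced group and 103 FPKM in the induced one. It went from the 32.5th to the 95.5th percentile of tested genes by level. The rise was 138-fold, with a log2 fold change of 7.11 (SE 0.20; 95% interval of the fold 106 to 180), and the authors' deposited table gives q as 0. Among 1948 called rises with a fold it ranked 2, after Sp5 itself. The row spans chromosome 17, positions 8627288 to 8635361 of mm9, and overlaps no other row. In these bulk RNA samples, more cells that express a gene and more RNA per cell cannot be told apart.

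Eomes, the T-box factor of the early streak, was already present without doxycycline. Its value was 10.4 FPKM there and 27.8 FPKM with doxycycline, a 2.67-fold rise (log2 1.42, SE 0.08; fold 2.40 to 2.96), and the authors' deposited table lists its q as 0. In FPKM the gain was 17.4 for Eomes and 102 for T. Eomes ranked 382 among the called rises. Its row covers chromosome 9, 118387330 to 118395250 of mm9.

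Tbx3 rose from 1.53 to 2.63 FPKM, which is 1.72-fold (log2 0.78, SE 0.23; fold 1.26 to 2.34; q = 0.00397 in the authors' deposited table). Its row, at chromosome 5, 120061272 to 120134733, overlaps those of Gm16063, Gm16064 and Gm2301, so reads may not be separable, although these were listed at no more than 0.0288 FPKM and were not tested. Tbx3 was no longer called with the Holm adjustment over all tested genes, with a minimum fold of 2, or where rows that overlap another were left out.

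The 3 rises differed in size. On the log2 scale the change of T exceeded that of Eomes by 5.69 (SE 0.21; 95% interval 5.28 to 6.11) and that of Tbx3 by 6.33 (SE 0.30; 5.74 to 6.92). Eomes exceeded Tbx3 by 0.63 (SE 0.24; 0.16 to 1.11). The 3 pairs had normal p-values, adjusted by Benjamini-Hochberg over them, of 2.78e-159, 7.30e-98 and 0.00837. The SEs come from the authors' Cuffdiff statistics and take the genes as independent, although they were measured in the same libraries.

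**Figure D2:**
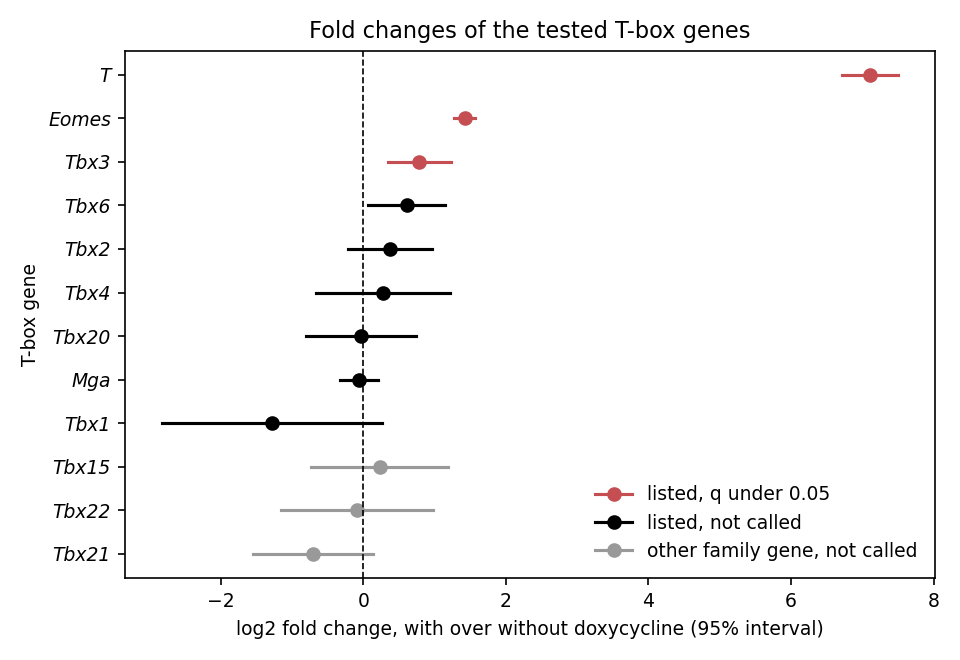
Log2 fold change, with over without doxycycline, of the 12 tested T-box family genes, with the 95% interval from the authors' test statistic. T lies at 7.11, apart from Eomes at 1.42 and Tbx3 at 0.78, and the interval of Mga, from -0.33 to 0.21, is the narrowest among the genes not called.

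Mga had the highest level of the family without doxycycline. It stood at 18.5 FPKM without and 17.8 FPKM with doxycycline and was not called (q = 0.878 in the authors' deposited table). The interval of its fold, 0.796 to 1.16, leaves out a change of the size seen in Tbx3. Its row covers chromosome 2, 119722964 to 119795317 of mm9.

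Tbx6, which turns neuromesodermal cells towards presomitic mesoderm, stood at 0.362 and 0.553 FPKM (log2 0.61, SE 0.28; fold 1.05 to 2.22). Its unadjusted p was 0.0286 in the Cuffdiff test, and q was 0.105 in the authors' deposited table. The row, at chromosome 7, 133924997 to 133929074, ends 0.346 kb from that of Ppp4c, a phosphatase gene at 135 and 130 FPKM.

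The remaining members had low levels, none above the 13.4th percentile of tested genes in either group. Tbx2, a repressor related to Tbx3, had 0.0851 and 0.110 FPKM, and Tbx4, a hindlimb factor, 0.109 and 0.131 FPKM. The heart factor Tbx20 had 0.150 and 0.147 FPKM. Their folds were 1.30 (0.860 to 1.95), 1.21 (0.634 to 2.31) and 0.979 (0.575 to 1.67). Tbx1, a factor of the pharyngeal arches, had 0.0793 and 0.0326 FPKM, a fold of 0.412 whose interval ran from 0.142 to 1.20. In the authors' deposited table q was 0.462 for Tbx2, 0.808 for Tbx4, 0.988 for Tbx20 and 0.276 for Tbx1. Tbx5, the factor of heart and forelimb, was listed at 0.0101 and 0.00990 FPKM with the status NOTEST. A rise of the size of that of Tbx3 lies within the intervals of Tbx2 and Tbx4, so the lack of a call does not show that these genes were alike in both groups.

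In mm9 the row of Tbx1 covers chromosome 16, 18581806 to 18588113, and that of Tbx20 chromosome 9, 24527648 to 24578746. Tbx2 lies at chromosome 11, 85646053 to 85655450, Tbx4 at 85699924 to 85729599 of the same chromosome, and Tbx5 at chromosome 5, 120284672 to 120335227. Tbx2 with Tbx4, and Tbx3 with Tbx5, are neighbouring pairs in the genome. The rows of Tbx2 and Tbx4 lie 44.5 kb apart on chromosome 11 and those of Tbx3 and Tbx5 150 kb apart on chromosome 5. Tbx3 was thus called beside a neighbour that was not tested, and neither gene of the other pair was called.

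**Figure D3:**
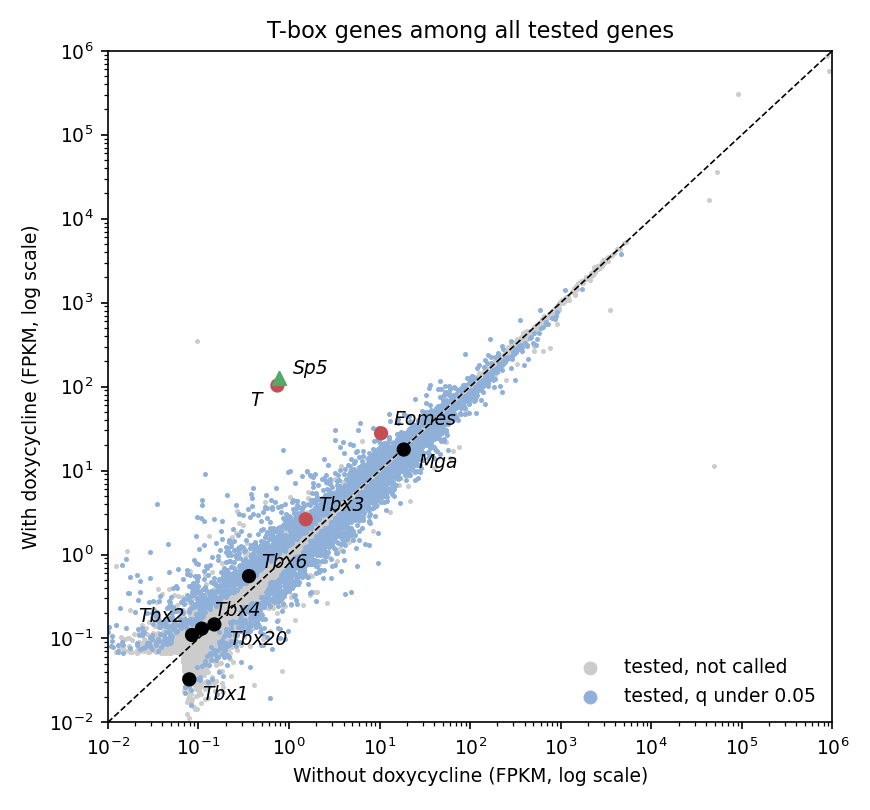
Group values in FPKM (log axes) without doxycycline, horizontal, and with it, vertical, for the tested genes with both values inside the axes, blue where q was under 0.05. Large red points are the called T-box genes, large black points the other tested members, and the green triangle is Sp5, which lies next to T.

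The family was completed with 7 further T-box genes that have a row: Tbr1, Tbx10, Tbx15, Tbx18, Tbx19, Tbx21 and Tbx22. None of them exceeded 0.151 FPKM in a group. Tbx15 (0.0919 and 0.108 FPKM), Tbx21 (0.0868 and 0.0530 FPKM) and Tbx22 (0.151 and 0.142 FPKM) were tested but got no call in the authors' deposited table. The other 4 were not tested and were listed at 0.0351 and 0.0298 FPKM (Tbr1), 0.0150 and 0.00687 (Tbx10), 0.0338 and 0.0510 (Tbx18) and 0.00910 and 0.0149 (Tbx19).

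The order of levels changed at the top. Without doxycycline Mga stood first, 1.78 times as high as Eomes, then Tbx3 and T, and Eomes was 14.0 times as high as T. With doxycycline T stood first, 3.70 times as high as Eomes and 5.79 times as high as Mga, and Tbx3 came after Mga. Whether neighbours in either order differ beyond the spread between libraries cannot be given from 1 value per group. The sum over the 17 genes went from 32.4 to 152 FPKM. Without T, it went from 31.7 to 49.6 FPKM. T made up 2.30% of the sum without doxycycline and 67.5% with it, Eomes 32.1% and 18.2%, and Mga 57.1% and 11.7%.

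**Figure D4:**
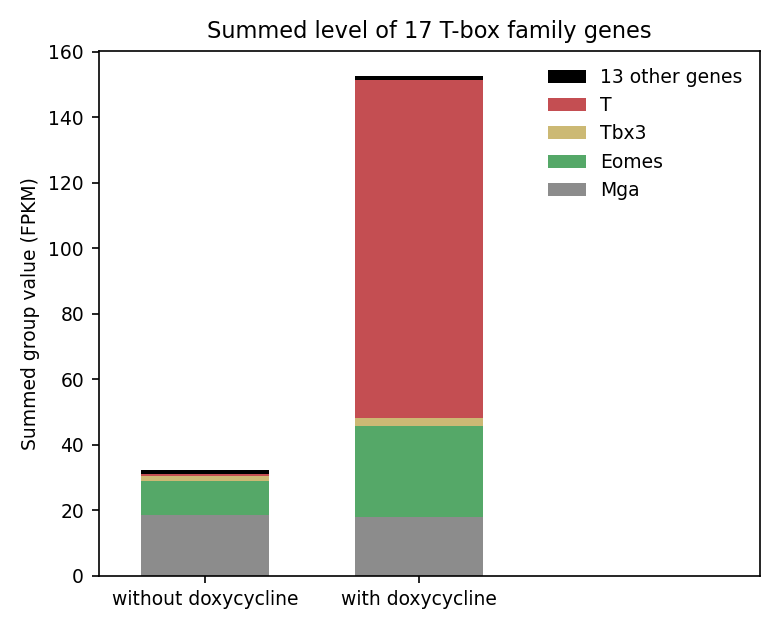
Summed FPKM of 17 T-box family genes in each group, stacked by gene, with 13 genes under 1 FPKM in both groups shown in black. The sum went from 32.4 to 152 FPKM, and T makes up 67.5% of the bar with doxycycline.

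Genes with a pattern like that of each called member were sought among 17771 tested genes, by distance in the plane of both log2 group values. This likeness rests on 2 values per gene. The nearest to T was Sp5 (0.769 and 126 FPKM, distance 0.30), and then came Fgf17, a fibroblast growth factor (0.868 and 17.5 FPKM), at 2.56. No other gene than Sp5 lay within 0.5 of T, whereas 13 did for Eomes and 301 for Tbx3. Nearest to Eomes were Cdc42ep5 (9.67 and 27.6 FPKM, 0.11) and Tcea3 (10.1 and 24.3 FPKM, 0.20), and nearest to Tbx3 were Sh3pxd2a (1.57 and 2.59 FPKM) and Efnb3 (1.48 and 2.65 FPKM).

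On the lower-coordinate side of T, the rows of Prr18, Sft2d1 and Gm16702 share a span that ends 11.7 kb from it. All 3 rose in the authors' deposited table. Prr18 went from 0.115 to 2.51 FPKM (21.8-fold, q = 1.18e-12), Gm16702 from 1.33 to 2.68 FPKM (2.02-fold, q = 6.84e-05) and Sft2d1 from 32.2 to 40.7 FPKM (1.26-fold, q = 0.0117). Reads of these 3 may not be separable. On the other side, 82.9 kb away, the phosphodiesterase gene Pde10a (0.730 and 0.888 FPKM) was not called. Within 150 kb of T, 4 of 6 tested rows were higher and none lower, 3 of the 4 being those that share the span above. The other was Brp44l (8.99 to 15.5 FPKM, post hoc). Over all tested genes 10.5% were called higher and 12.7% lower. Around Eomes none of 4 tested rows was called, including Golga4, a Golgi protein gene 20.1 kb away (11.9 and 13.1 FPKM). On its other side the nearest row, U4, was listed at 0 in both groups. Beyond the rows that overlap Tbx3, the nearest was Gm16065 (0.0431 and 0.0480 FPKM), 0.370 kb away and not tested.

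The next results concern genes known to act with T-box factors, from lists written with earlier results of these data known. Over all tested genes the median log2(FPKM + 1) difference was -0.02. In the 137 tested genes of 13 lists together, 49 rose and 23 fell (52.6% called), and 34 of them were called when a minimum fold of 2 was also set. The lists are read against the 23.2% of all tested genes that were called with no minimum fold, and no list was tested. That share does not apply to the 34 calls. With a minimum fold of 2, only the share of all tested genes called higher was computed, 3.54%.

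The list of signals that switch on T and Eomes in the streak moved both ways. It holds ligands together with receptors and nuclear factors of their pathways. Of 20 tested genes 7 rose, 6 fell and 7 went uncalled in the authors' deposited table, with a median difference of 0.09. Wnt3, the ligand that induces the streak, rose from 0.555 to 5.14 FPKM (9.25-fold), Bmp4 from 1.83 to 8.46 FPKM (4.62-fold), Wnt8a from 1.05 to 2.42 FPKM and Nodal from 15.9 to 36.5 FPKM (2.30-fold). Smad3, which carries the Nodal signal to the nucleus, fell from 3.32 to 1.70 FPKM. The other rises (post hoc) were those of the ligands Wnt3a (0.0172 to 0.344 FPKM) and Fgf8 and of Tdgf1. The other falls (post hoc) were those of the ligand Fgf4 (25.4 to 15.3 FPKM) and of Fgfr1, Smad4, Foxh1 and Tcf7l1.

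The list of genes downstream of T holds genes of posterior mesoderm, node and notochord. Of 23 tested, 16 rose, 2 fell and 5 went uncalled in the authors' deposited table, with a median difference of 0.30. Of the 16 rises, 11 were in genes at 1 FPKM or more in a group, and the others stayed below it. Evx1, a posterior homeobox gene, went from 0.119 to 9.01 FPKM (75.9-fold), Fgf17 as given above (20.2-fold), the early mesoderm factor Mesp1 from 0.0948 to 1.64 FPKM (17.3-fold), Cdx2 from 0.262 to 3.85 FPKM (14.7-fold) and Nog, which blocks BMP, from 0.173 to 1.13 FPKM (6.55-fold). Those that fell (post hoc) were the retinoic acid-degrading enzyme Cyp26a1 (34.8 to 29.2 FPKM) and Chrd, which binds BMPs, (1.20 to 0.739 FPKM). Noto and Shh, which mark node and notochord, were listed at no more than 0.0134 FPKM and were not tested (post hoc). Wnt3a and Fgf8, both called higher, are counted here and also in the list of upstream signals (post hoc).

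Genes downstream of Eomes were divided. Of 17 tested, 6 rose, 4 fell and 7 went uncalled in the authors' deposited table, and the median difference was -0.08. Besides Mesp1, the Nodal antagonists Lefty2 (12.9 to 38.6 FPKM, 2.98-fold) and Lefty1 (34.8 to 95.9 FPKM, 2.75-fold) rose, as did the streak homeobox gene Mixl1 (0.749 to 2.05 FPKM, 2.74-fold). Cer1, an antagonist made by anterior endoderm, fell from 7.67 to 2.90 FPKM. The other falls (post hoc) were those of Otx2, Gata6 and Cdh1 (134 to 99.7 FPKM). Rises and falls were counted without an expected direction for each gene. The endoderm factors Sox17 (3.13 FPKM in both groups) and Foxa2 (5.34 and 4.47 FPKM), both post hoc, were not called. This list shares 2 genes with that of T, Mesp1 and Snai1, which make up 11.8% of the Eomes list and 8.0% of the T list.

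Targets of Tbx6 were mostly low, like Tbx6 itself. Of 6 tested genes 1 was called in the authors' deposited table, the R-spondin gene Rspo3 (0.410 to 0.709 FPKM, post hoc), and 5 were not. All of them but Ripply2 (post hoc) are also in the list downstream of T, where Rspo3 is already counted among the rises. The median difference was 0.09.

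**Figure D5:**
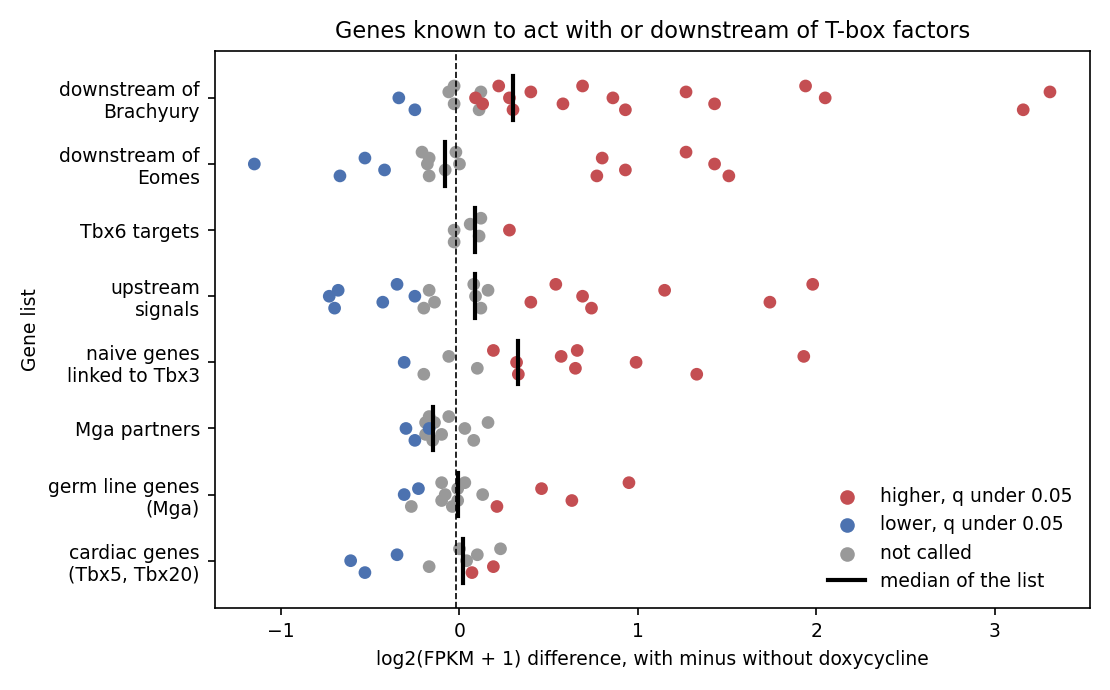
Difference in log2(FPKM + 1), with minus without doxycycline, of each tested gene in 8 lists of genes known to act with T-box factors, red where higher and blue where lower at q under 0.05 and grey otherwise. Black bars are list medians, 0.30 downstream of Brachyury and -0.08 downstream of Eomes, and the dashed line is the median of all tested genes.

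Among naive pluripotency genes linked to Tbx3, 9 of 13 tested rose, 1 fell and 3 went uncalled in the authors' deposited table, with a median difference of 0.33. Klf2 rose from 4.72 to 20.7 FPKM (4.39-fold), Nr5a2 from 0.497 to 1.98 FPKM, Gbx2 from 0.283 to 1.03 FPKM, Nanog from 46.0 to 117 FPKM (2.54-fold) and Tfcp2l1 from 1.02 to 2.00 FPKM. The other called rises were smaller in level or fold (post hoc). They were Dppa3 (1.62-fold), Socs3 (1.43-fold) and Zfp42 (1.15-fold) at 1 FPKM or more, and Prdm14 (0.217 to 0.527 FPKM) below it. The fall (post hoc) was that of Stat3 (5.76 to 4.45 FPKM, q = 0.0488 in the authors' deposited table). Klf4 (fold 0.798), Klf5 (fold 0.949) and Lifr (fold 1.13), all post hoc, were tested but not called. Esrrb (post hoc) had the status FAIL and was not tested. Of 5 tested genes in a list of cell-cycle inhibitors repressed by Tbx2 and Tbx3, 1 rose, 1 fell and 3 went uncalled in the authors' deposited table (median difference 0.08). The riser was Cdkn1a, which inhibits cyclin-dependent kinases, from 16.1 to 40.8 FPKM.

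Groucho and Ripply co-repressors, which convert T-box activators into repressors, had 3 rises among 8 tested and no fall in the authors' deposited table (median difference 0.19). Tle1 rose from 7.45 to 10.8 FPKM and Tle3 from 16.0 to 21.4 FPKM. The third was Ripply3, a partner of Tbx1, at 0.223 and 0.559 FPKM (post hoc).

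Of 13 tested subunits of the Polycomb complex of Mga none rose, 3 fell and 10 went uncalled in the authors' deposited table (23.1% called, median difference -0.15). All 13 were at 1 FPKM or more in a group, where 28.3% of tested genes were called, against 23.2% at any level. Cbx3 fell from 148 to 120 FPKM (1.23-fold), the ubiquitin ligase Rnf2 from 32.9 to 27.5 FPKM (1.20-fold) and Wdr5 from 60.8 to 54.1 FPKM (1.12-fold, q = 0.0451). Of 10 tested genes of the Myc, Mxd and Mlx network, in which Myc and Mxd proteins pair with Max as Mga does, Mycl1 (15.6 to 23.6 FPKM) and Mxi1 (4.35 to 5.81 FPKM) rose and 8 went uncalled in the authors' deposited table (median difference -0.03). Max itself stood at 40.5 and 45.3 FPKM and was not called (post hoc).

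Germ line genes that the complex silences were mixed, with 4 of 15 tested higher, 2 lower and 9 without a call in the authors' deposited table (median difference -0.01). Tdrkh rose from 1.46 to 3.76 FPKM (2.58-fold), Stag3 from 5.54 to 9.11 FPKM and Ddx4 from 4.82 to 7.02 FPKM and Smc1b from 0.846 to 1.14 FPKM, while Mael fell from 7.56 to 5.89 FPKM.

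Cardiac partners and targets of Tbx5 and Tbx20 had 2 rises, 3 falls and 5 uncalled genes among 10 tested in the authors' deposited table (median difference 0.02). Myl7 fell from 7.83 to 4.77 FPKM, Gata6 from 4.43 to 2.76 FPKM and Myh6 from 2.00 to 1.35 FPKM. Both rises (post hoc), those of Nkx2-5 (0.0870 to 0.240 FPKM) and Mef2c (0.0463 to 0.0956 FPKM), stayed under 1 FPKM. In the list of limb and pharyngeal genes linked to Tbx1 and Tbx4, 4 of 7 tested rose and 2 fell in the authors' deposited table (median difference 0.10). Eya1 rose from 0.229 to 1.25 FPKM (5.48-fold), as did Gbx2, given above, while Fgf10 fell from 2.29 to 1.64 FPKM.

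Markers of the cells in culture and of others that express T-box genes were measured beside these results. The defining ES cell factors Pou5f1 (999 and 1058 FPKM) and Sox2 (60.8 and 60.6 FPKM) were present and not called (both post hoc). Of 8 tested ES cell and epiblast markers 2 rose and 4 fell in the authors' deposited table, with sums of 1758 and 1638 FPKM. Dnmt3b was listed at 0 without and 273 FPKM with doxycycline. Its status was HIDATA instead of OK and it was not tested, so the 0 is not read as absence. It is left out of the sums. Nanog and Tdgf1 (post hoc) rose, and the epiblast genes Fgf5 (56.5 to 17.8 FPKM), Pou3f1 (45.9 to 15.8 FPKM), Utf1 (314 to 119 FPKM) and Otx2 (112 to 70.0 FPKM) fell. Eomes is also made by visceral endoderm and trophectoderm. Of 10 tested visceral endoderm markers none rose and 7 fell in the authors' deposited table, their summed level going from 189 to 147 FPKM. Among these Sox7 fell from 2.49 to 1.46 FPKM, Lama1 from 11.8 to 6.98 FPKM, Afp from 10.5 to 6.57 FPKM, Apoa1 from 18.9 to 12.6 FPKM and Cubn from 46.3 to 34.2 FPKM. Of 9 tested trophectoderm markers 1 rose (Cdx2) and 1 fell (Krt7), the sum was 7.81 and 10.2 FPKM, and Prl3d1 was listed at 0 in both groups. Feeder fibroblasts can carry Tbx2, Tbx15 and Tbx18, and of 13 tested fibroblast markers 4 rose and 3 fell, with sums of 20.1 and 21.0 FPKM. Col1a1 (1.11 to 4.43 FPKM) and Col5a1 (1.03 to 1.91 FPKM) were higher, and Dcn (2.08 to 1.39 FPKM) and Thy1 (9.34 to 6.42 FPKM) lower. Of 7 tested heart muscle markers 1 rose and 3 fell (17.3 and 24.4 FPKM), with Actc1 going from 6.64 to 17.2 FPKM. Of 8 tested blood and endothelial markers 1 rose, Pecam1 (2.50 to 5.14 FPKM), and 5 fell, among them Etv2 (5.15 to 1.47 FPKM) and Hba-x, listed at 0 with doxycycline (sums 10.4 and 8.61 FPKM). Single genes weigh on these sums. Without Cdx2, which is also in the list downstream of T, the trophectoderm sum went from 7.55 to 6.39 FPKM. Without Actc1 the heart muscle sum went from 10.6 to 7.21 FPKM, without Col1a1 the fibroblast sum from 19.0 to 16.5 FPKM, without Etv2 the blood and endothelial sum from 5.29 to 7.15 FPKM and without Utf1 the ES cell and epiblast sum from 1444 to 1519 FPKM, each the opposite direction to the full sum. The visceral endoderm sum without Cubn went from 142 to 113 FPKM, the same direction. The part of these cells in the T-box results was not tested.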

How the data were processed

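Poly(A)-selected RNA of 6 libraries was sequenced, per the labels' protocols, which mention no strand marking. Mouse build mm9, Cuffdiff, Cufflinks 2.0.2, TopHat2 2.0.8, Picard and Bowtie are named in the submitters' processing notes. The sources used here do not give annotation or filters. The authors deposited 1 FPKM value per group and gene, with their test statistic (a score), p-value, q-value and log2 fold change. The design allowed for a refit on values per library. The table held group values, so the authors' calls (status OK, q under 0.05) were used. Adjusting those p-values by Benjamini-Hochberg over the 18537 tested rows returned the q column with differences of at most 1.79e-06. The SE is the log2 ratio of the group values divided by the statistic. No pseudocount was used for folds, and 1 FPKM for differences of lists. With no counts in the table, depth is unknown. Starts were taken as 0-based and are printed from 1.

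Members and lists were chosen with earlier results of these data known. Of 207 listed genes, 201 had 1 row of their own. Named were all members, the other family genes, up to 5 called genes per list with the largest changes at 1 FPKM or more, markers listed at 0, neighbours of called members and the 2 nearest patterns. A few genes that this rule names are not reported here. Versions were scipy 1.17.1, pandas 2.3.3, numpy 2.4.6 and Python 3.11.15, and the adjustment and SE steps were tested on simulated data.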

Additional observations from a re-analysis of the deposited data

How the results depend on the processing

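Of the 10 members, 3 remained called with q under 0.01, with q under 0.10, at 1 FPKM or more, and with adjustment over genes at that level only. The looser q and the level of 1 FPKM could not have removed any of these calls. The count was 2 with the Holm adjustment, with a minimum fold of 2, and over rows that overlap no other, and in each case Tbx3 was the call lost. Over the lists of related genes, 72 calls became 34 with a minimum fold of 2. The share of all tested genes called in either direction at that fold was not computed. With a pseudocount of 1 FPKM, the log2 change was 5.90 for T, 1.33 for Eomes, 0.52 for Tbx3, 0.19 for Tbx6, 0.03 for Tbx2 and -0.06 for Tbx1, and with 0.1 FPKM it was -0.43 for Tbx1. A pseudocount shrinks the changes of low genes by its construction. The difference of T from Eomes became 4.56 and that from Tbx3 5.37 with 1 FPKM, a setting chosen after seeing the data. Centring on the median of genes at 1 FPKM or more, -0.044 on the log2 scale, reversed no called member. It could not have done so, because the shift is smaller than the change of each of them. No paired analysis was possible because the table holds 1 value per group, and no replicate could be left out for the same reason.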

Other observations

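Called shares among neighbours of members that were not called are given beside the 23.2% of all tested genes that were called, 12.7% being lower. Within 150 kb of Tbx6, 3 of 20 tested rows fell and none rose in the authors' deposited table, a share near that of all genes. These were Aldoa, a glycolytic enzyme gene (879 to 689 FPKM, 9.67 kb from Tbx6), the actin regulator Coro1a (20.0 to 9.65 FPKM) and Fam57b (6.10 to 3.23 FPKM), named after their values were seen. Within 150 kb of Mga, Itpka rose (0.461 to 0.861 FPKM) and Ehd4 fell (10.9 to 8.67 FPKM) among 10 tested rows, named likewise. Around Tbx1, 1 of 6 tested rows rose, the row shared by Gp1bb and Sept5 (0.377 to 0.632 FPKM, q = 0.0153 in the authors' deposited table).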
